A study of Mus musculus with 6 samples.

Results

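Among 46495 testicular cells profiled in 6 single-cell RNA sequencing libraries, 619 carried the deposited fine label Differentiated SG, short for differentiated spermatogonia, and all 619 lay in the deposited broad class of spermatogonia. They were chosen by that label alone. The class held 92, 90 and 64 cells in libraries TA, TB and TC and 141, 134 and 98 cells in libraries TD, TE and TF. The libraries came from enzyme-digested testes of adult C57BL6 mice of 2 genotypes, NONO and NONO deltaER, with 3 libraries each, and no treatment is named for either. The sources used here do not say what the deltaER alteration changes. The cell table names the groups WT and KI instead, and WT (TA, TB, TC) was read as NONO and KI (TD, TE, TF) as NONO deltaER; were this reading wrong, every direction between genotypes given here would turn. The labels do not state whether each library is a separate animal; p-values therefore reflect only how far these 6 libraries vary, and part of that variation may be technical.

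Spermatogonia are the dividing germ cells at the edge of the seminiferous tubule. Undifferentiated spermatogonia include the stem cells and depend on factors such as GFRA1 and ZBTB16, while differentiating spermatogonia switch on the receptor KIT and divide by mitosis. Retinoic acid then induces Stra8, whose protein acts together with MEIOSIN to start the meiotic program; the cell copies its DNA once more as a preleptotene spermatocyte, and in leptotene PRDM9 marks the places where double-strand breaks are made, which the recombinase DMC1 then helps to repair. The question asked of the class was where its transcripts place it on this path and how they compared between the genotypes.

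The libraries held 6261 to 8909 cells and 81042216 to 110018960 UMI. A UMI, or unique molecular identifier, tags 1 captured transcript near its 3′ end. The class itself was shallow. It held 218184, 163914 and 192424 UMI in TA, TB and TC and 454758, 347977 and 178569 UMI in TD, TE and TF, with 581 to 13330 UMI per cell. Its median was 2036 UMI and 1342 genes per cell, against 8736 UMI and 2709 genes over all cells. Cells of the class named Preleptotene SC had a median of 1253 UMI, those of Undifferentiated SG 3291 and those of Lep/Zygo/ePac SC 13122. The median mitochondrial percent in the class was 1.99, 2.11 and 2.07 in TA, TB and TF but 1.00, 1.11 and 1.10 in TC, TD and TE, a division that crosses the genotypes; these are called the library sets below. Over the whole matrix 650 barcode sequences occurred in more than 1 library; 20 cells of the class shared theirs with a cell of another class, and 0 with another cell of the class. Scrublet, a doublet caller, marked 2 of the 619 cells.

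The class was made by clustering these same cells, so its differences from the other 16 classes are descriptions and carry no test. Levels are CPM (a gene's share of all UMI of the class in a library, on the usual counts-per-million scale), averaged over the 6 libraries. Among genes with a mean of at least 100 CPM in the class, the one with the largest ratio to the next highest class was Gm4969, the gene of MEIOSIN, the partner of STRA8. Its level was 701, 854 and 717 CPM in the NONO libraries and 712, 928 and 980 CPM in the NONO deltaER libraries, and the mean of 816 ± 122 CPM (SD, n = 6) was 7.77 times the next highest class mean, 105 CPM in Preleptotene SC. Prdm9, the methyltransferase that marks recombination sites, had 532, 592 and 525 CPM in NONO and 539, 523 and 482 CPM in NONO deltaER, with a mean 5.47 times that of Preleptotene SC (97.2 CPM). Stra8 itself had 958, 1092 and 1060 CPM in NONO and 809, 937 and 902 CPM in NONO deltaER. All 6 values lay above the highest library of Undifferentiated SG (308 CPM) and of Preleptotene SC (42.1 CPM). Dmc1 had 678, 604 and 764 CPM in NONO and 767, 730 and 689 CPM in NONO deltaER, above every library of Preleptotene SC (291 to 379 CPM). For these 4 genes the class was thus the highest of the 17 in the mean, and each of its libraries lay above each library of the classes on either side.

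Kit did not share this pattern. Its level in the class was 142.1, 104 and 109 CPM in NONO and 94.6, 118 and 112 CPM in NONO deltaER, a mean of 113 ± 16.2 CPM (SD, n = 6). Undifferentiated SG held more, from 142.5 to 201 CPM, and its lowest library was just above the highest of the class (142.1 CPM). In Preleptotene SC Kit ran from 0 to 10.6 CPM, so the class lay between its neighbours. The highest mean of the 17 classes was in Leydig cells (256 CPM), which are known to express Kit.

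**Figure D1:**
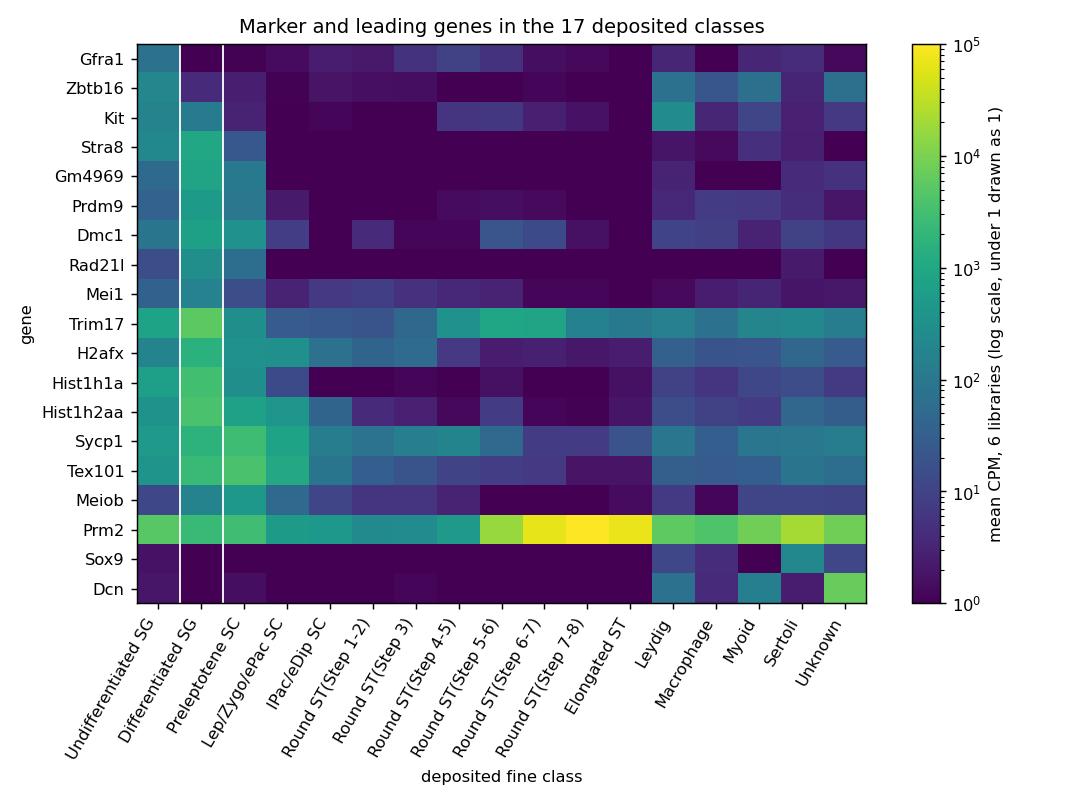
Mean level in CPM over the 6 libraries (colour, log scale, values under 1 drawn as 1) of 19 marker and leading genes (rows) in the 17 deposited classes (columns); white lines frame the Differentiated SG class. Stra8, Gm4969, Prdm9, Dmc1 and the histone genes are brightest within the frame, Kit is brighter to its left, and Sycp1, Tex101 and Meiob are brighter to its right.

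The other genes that led the class were of a few kinds. By the rule applied (a mean of at least 100 CPM and the largest ratio to the highest other class) 24 genes were named. Meiotic genes among them were Rad21l, a meiotic cohesin subunit (302 CPM, ratio 4.72), Mei1, needed for double-strand break formation (162 CPM, ratio 4.47), Esco2, a cohesin acetyltransferase (514 CPM), and Ccdc36, also called Iho1, a partner of the break machinery (141 CPM). Histone genes made up another group, with Hist1h2bm (1329 CPM, ratio 6.34), Hist1h1c (591 CPM, ratio 5.58), the testis histone gene Hist1h2aa (3637 CPM, ratio 4.93), the linker histone gene Hist1h1a (2999 CPM, ratio 4.55) and H2afx, whose product is phosphorylated around DNA breaks (1538 CPM, ratio 4.64). The remaining leaders included the ubiquitin ligase gene Trim17 (5421 CPM, ratio 6.36), the nuclear receptor gene Pparg (103 CPM, ratio 5.33), the damage-recognition gene Ddb2 (275 CPM) and Iqsec1, which encodes an activator of ARF GTPases. Many Hist1 genes have near-identical coding copies, so how reads were shared between them is uncertain. Most replication-linked histone transcripts also lack a poly(A) tail, on which this chemistry primes, so these levels cover only what was captured.

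Transcript number was dominated by other genes. Zc3h7a (35930 CPM) and Peak1 (27588 CPM) were the most abundant in the class. The next, Gm26917, which overlaps a ribosomal RNA repeat, had 19103, 19504 and 20009 CPM in TA, TB and TF but 3560, 4908 and 5213 CPM in TC, TD and TE, the same library sets as the mitochondrial percent. Its part in any other result was not tested.

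Promoters are shown for 3 of these genes because STRA8 and MEIOSIN are known to bind promoters holding the letters CNCCTCAG. Windows from 250 bases before to 50 bases after the annotated start were read from RefSeq (GRCm38.p6) and searched on both strands. Of the 24 leading genes 20 had at least 1 window (some have several annotated starts), and 7 of these (35.0%) held the letters (Gm4969, Hist1h2bm, Prdm9, Pparg, Eaf2, Zfp398 and Ugt8a), against 9.12% of 27025 genes of the table. The windows below lie at chr7:19118295-19118594 (minus strand, Gm4969), chr17:15564305-15564604 (minus strand, Prdm9) and chr6:34920698-34920997 (plus strand, Stra8), are written along the gene and have matches in capitals. These windows held 1 match for Gm4969, 2 for Prdm9 and 0 for Stra8; the other Prdm9 window of the table, at chr17:15563282-15563581, held 0 and is not shown.
Gm4969: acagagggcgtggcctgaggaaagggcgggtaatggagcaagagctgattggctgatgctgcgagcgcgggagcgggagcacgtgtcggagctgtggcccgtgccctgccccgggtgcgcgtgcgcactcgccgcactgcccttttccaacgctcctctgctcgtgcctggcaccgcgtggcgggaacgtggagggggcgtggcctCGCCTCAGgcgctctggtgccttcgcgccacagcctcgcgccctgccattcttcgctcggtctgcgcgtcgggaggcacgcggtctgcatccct
Prdm9: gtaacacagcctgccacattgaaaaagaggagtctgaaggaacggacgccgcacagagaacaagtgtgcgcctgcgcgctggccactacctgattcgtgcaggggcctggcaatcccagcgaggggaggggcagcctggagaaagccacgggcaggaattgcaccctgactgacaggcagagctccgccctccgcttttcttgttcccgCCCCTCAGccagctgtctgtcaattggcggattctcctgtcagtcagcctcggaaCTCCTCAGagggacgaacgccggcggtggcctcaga
Stra8: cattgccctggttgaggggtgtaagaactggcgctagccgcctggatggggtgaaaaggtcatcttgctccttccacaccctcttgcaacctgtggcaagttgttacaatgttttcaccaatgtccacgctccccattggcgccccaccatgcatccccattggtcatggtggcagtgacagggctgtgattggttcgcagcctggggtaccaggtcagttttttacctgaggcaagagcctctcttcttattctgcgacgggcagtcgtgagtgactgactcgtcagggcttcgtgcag
The other letters searched, TTTCCCGC and TTTGGCGC (bound by E2F factors) and TGACGTCA (the cyclic AMP response element), were found in the windows of 0 of the 20 genes and in 1.24%, 0.585% and 2.03% of all genes. A match describes letters and not a bound site, and the absence of one says nothing about the factor.

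Markers of stem and early spermatogonia were scarce in the class. Of 18 measured markers of undifferentiated spermatogonia, 0 were highest in the class and 10, Gfra1 and Ret among them, had 0 UMI in its 1555826 UMI. Zbtb16, the stem cell transcription factor gene, had 4.03 ± 4.57 CPM in the class and 206 ± 41.0 CPM in Undifferentiated SG (SD, n = 6), and Sall4 had 2.06 against 98.6 CPM. Of 13 measured markers of differentiating spermatogonia, 3 were highest in the class: Stra8, Rhox13 (132 CPM) and the testis protease gene Prss50 (755 CPM). Another 10 were below Undifferentiated SG in every library. Dmrt1, a transcription factor gene that holds back meiosis, had 122 ± 29.2 CPM against 478 ± 51.0 CPM. Uchl1 had 22.2 against 281 CPM, Sohlh1 had 12.2 against 68.7 CPM, and Ccnd2, a cyclin gene of dividing spermatogonia, had 0 UMI against 40.5 CPM. The list as a whole, with Stra8 (960 CPM) and Prss50 in it, took 0.228% of the UMI of the class. It took 0.202% in Undifferentiated SG, 0.0781% in Preleptotene SC and 0.0455% in Lep/Zygo/ePac SC. The class had a larger share than Undifferentiated SG in every library but TD (0.204% against 0.231%).

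Genes of meiotic entry were at their highest in the class. Of 9 measured, 7 had their highest mean of the 17 classes there. Of all 25771 genes 2379 did, while 9502 had 0 UMI in the class and could not. The same background applies to the other counts of genes highest in the class. Meioc and Ythdc2, which together clear mitotic transcripts, had 1116 ± 84.2 and 382 ± 39.9 CPM, and Tex15 had 2280 ± 112 CPM (SD, n = 6). Rec8, the meiotic cohesin kleisin gene, was low at 37.3 CPM, and Rbm46 (169 CPM) was higher in Preleptotene SC (271 CPM). The list took 0.592% of the UMI of the class, 0.154% in Undifferentiated SG and 0.220% in Preleptotene SC.

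Of the 32 markers of leptotene to zygotene spermatocytes, 18 were highest in the class and 10 in Preleptotene SC. Break formation genes were mostly of the first kind (Prdm9, Mei1, Mei4, Rec114, Ccdc36, Gm960 and Ankrd31), but Spo11, the catalytic subunit gene, had 113 CPM in the class and 274 CPM in Lep/Zygo/ePac SC. The strand exchange gene Dmc1 and the cohesin genes Smc1b, Stag3 and Rad21l were also highest in the class. Genes of the chromosome axis and synapsis were of the second kind (Hormad1, Hormad2, Sycp1 and Sycp2). Meiob, a single-strand DNA binder, had 173 ± 27.0 CPM in the class and 455 ± 59.1 CPM in Preleptotene SC. Hormad1, an axis protein gene, had 642 against 1499 CPM, Sycp1, of the synaptonemal complex, 1744 against 2827 CPM, and the surface protein gene Tex101 2432 against 3636 CPM. The list took 1.43% of the UMI of the class and 1.46% of those of Preleptotene SC, so the classes differed in which of its genes they held and little in its sum.

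Lists by function followed the same lines. In the recombination list 27 of 46 measured genes were highest in the class, in the cohesin list 9 of 16, and in the list for attachment of telomeres to the nuclear envelope 6 of 9. The meiotic cohesin gene Smc1b had 1987 ± 151 CPM and Stag3 989 ± 117 CPM, while Rad21, the mitotic kleisin gene, had 68.5 CPM against 368 CPM in Undifferentiated SG. In the synaptonemal complex list 1 of 8 was highest in the class. In the retinoic acid signalling list 4 of 23 were, and 6 had 0 UMI in the class.

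Many replication genes were high in the class, while several genes of mitotic entry and exit were low. Of 43 measured DNA replication genes 22 were highest in the class. The helicase gene Mcm5 had 316 ± 46.5 CPM (135 CPM in Undifferentiated SG, 80.9 CPM in Preleptotene SC), the ribonucleotide reductase gene Rrm2 had 240 ± 16.7 CPM (67.2 and 33.8 CPM) and the ligase gene Lig1 had 411 ± 49.2 CPM (200.1 and 53.8 CPM). Mcm2 went the other way, with 106 CPM against 268 CPM in Undifferentiated SG. In the mitosis list 6 of 31 were highest in the class, among them the proliferation marker Mki67 (1473 ± 132 CPM) and Top2a (1364 ± 82.0 CPM). Low examples were the cyclin gene Ccnb1 (7.81 CPM against 125 CPM in Undifferentiated SG) and the kinase genes Plk1 (6.90 against 93.6 CPM) and Aurka (21.1 against 123 CPM). The 61 measured genes with symbols Hist1 to Hist4, a list drawn up after values had been seen, had 36 members highest in the class and took 1.48% of its UMI, against 0.280% in Undifferentiated SG and 0.372% in Preleptotene SC.

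**Figure D2:**
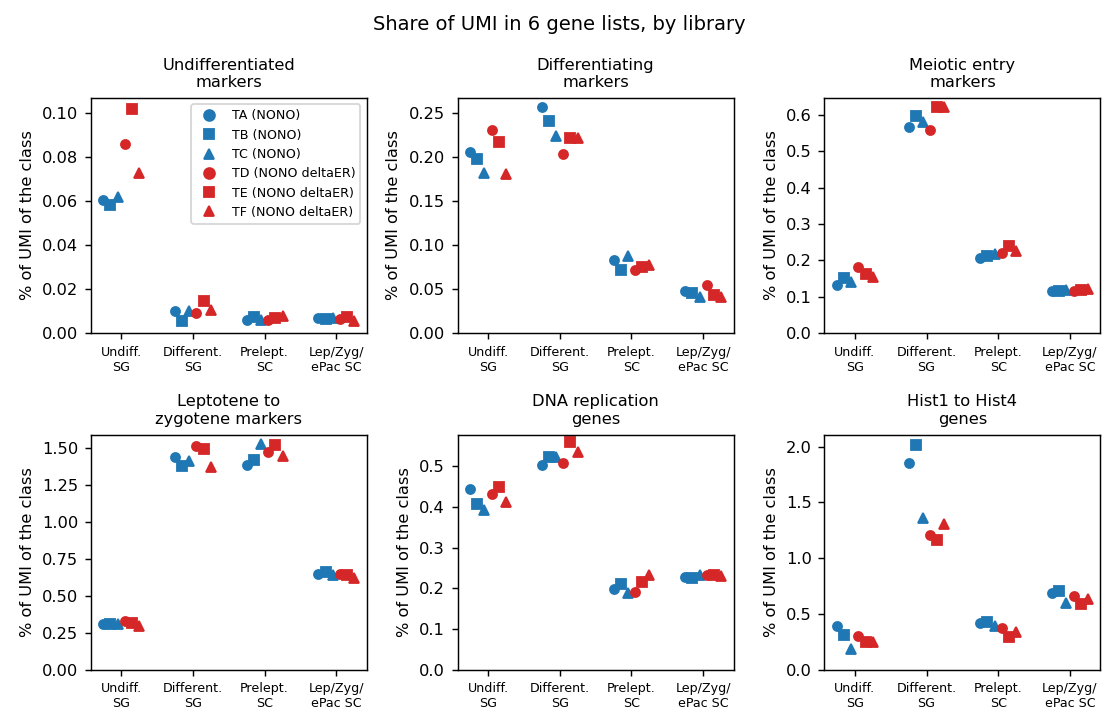
Percent of the UMI of a class (vertical axis, from 0) in 6 gene lists, for 4 classes along germ cell development (horizontal axis); each point is 1 library, blue for NONO and red for NONO deltaER. The Differentiated SG class has almost no UMI of undifferentiated markers (0.0100%). Of the 4 classes it has the highest mean shares of differentiating markers, entry markers, replication genes and histone genes.

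Markers of somatic cells took small shares of the UMI. The Sertoli list took 0.0118% to 0.0213% of the UMI of the class per library, the Leydig list 0.000575% to 0.00260%, the macrophage list 0% to 0.00168% and the fibroblast-like list 0% to 0.00183%; Of the Sertoli markers 3 of 13 had 0 UMI, of the Leydig markers 3 of 8, of the macrophage markers 4 of 11 and of the fibroblast-like markers 5 of 8, with Sox9, Cyp11a1, Lyz2 and Dcn among them. The peritubular myoid list was the largest of the somatic lists, at 0.0197% to 0.0457% per library (mean 0.0320%, against 0.0173% in Undifferentiated SG and 0.0145% in Preleptotene SC). Most of it was Mylk, a myosin light chain kinase gene (275 CPM in the class), while the smooth muscle genes Acta2, Myh11 and Tagln had 0.366, 1.23 and 5.56 CPM and Des had 0 UMI. Across 9926 genes the profile of the class was most like that of Preleptotene SC (Pearson r of log2(CPM + 10) 0.901), then Undifferentiated SG (0.83), Lep/Zygo/ePac SC (0.58) and Sertoli cells (0.466); the classes share libraries and the genes are not independent, so these are descriptions. X-linked genes took 2.54% of its UMI, against 2.07% in Undifferentiated SG, 1.58% in Preleptotene SC and 0.0516% in Lep/Zygo/ePac SC. The label and the data thus differ in part. Stra8 fits a differentiated spermatogonium entering meiosis, but Kit and most other markers of differentiating spermatogonia were lower than in Undifferentiated SG, while 7 of 9 genes of meiotic entry and 18 of 32 leptotene to zygotene markers were highest in the class, and 10 of those 32 in Preleptotene SC. The deposited name is kept here as a label.

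The pattern of Stra8, Gm4969, Prdm9, Dmc1 and Kit was also seen cell by cell. To compare classes of different depth, each cell was thinned to 1000 UMI, which kept 581 of the 619 cells and left out 38 (159 were left out in Undifferentiated SG, 460 in Preleptotene SC and 1127 among somatic cells). A UMI of Gm4969 was then seen in 57.7% of the cells of the class, 5.95% in Undifferentiated SG, 6.10% in Preleptotene SC and 0.433% of somatic cells. For Stra8 the shares were 42.5%, 16.7%, 1.08% and 0.252%. For Prdm9 they were 42.5%, 4.69%, 7.06% and 0.577%, and for Dmc1 50.6%, 7.81%, 25.2% and 1.05%. Kit was seen in 8.26% of the cells of the class and 16.1% of those of Undifferentiated SG, and in 5.34% of somatic cells, which include Leydig cells. Without thinning, the shares in the class were 79.2% for Gm4969, 57.2% for Stra8, 66.7% for Prdm9, 72.2% for Dmc1 and 17.8% for Kit, and those in Undifferentiated SG 15.0%, 34.4%, 13.4%, 28.1% and 36.6%. A UMI of Gfra1 was seen in 0 of 581 cells, which allows up to 0.516% of cells with a UMI at this depth (3 counts; counting error only, and no limit on cells that express it), against 3.94% in Undifferentiated SG. Prm2, a protamine gene of spermatids, was seen in 19.6% of the cells of the class and 53% of somatic cells. The shares were 24.9% in Undifferentiated SG, 22.6% in Preleptotene SC and 12.1% in Lep/Zygo/ePac SC. How much of this was free RNA was not tested.

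The marker genes were not spread evenly over the cells. At 2000 UMI per cell, which kept 311 cells (41, 26 and 33 in TA, TB and TC and 95, 83 and 33 in TD, TE and TF) and left out 308, 10 cells had a UMI of none of Stra8, Prdm9, Dmc1 and Kit, 74 of 1 of them, 119 of 2, 90 of 3 and 18 of all 4. Kit was seen in 29.0% of the 186 cells with a UMI of Stra8 (95% exact binomial interval 22.6% to 36.1%, 22.2% to 42.9% over the libraries) and in 2.4% of the 125 cells without (0.498% to 6.85%, 0% to 9.09% over the libraries). Dmc1 went the other way, seen in 66.7% of the cells with Stra8 and 82.4% of those without. Its ranges over the libraries overlapped, at 36.4% to 79.6% and 53.8% to 100%. Hist1h1a was seen in 94.1% and 78.4%, Gm4969 in 80.1% and 66.4% and Prdm9 in 62.4% and 54.4%. The ranges over the libraries overlapped for each of these genes too, and the intervals for Prdm9 did (55.0% to 69.3% and 45.3% to 63.3%). Cells were pooled over libraries, with most from TD and TE, and the part of this mix was not tested. The class thus held cells with UMI of Stra8 and Kit beside cells with UMI of Dmc1 and none of Stra8, at a depth where a transcript can be missed. The intervals cover counting error only and take cells of a library as independent.

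The share of cells in the class did not overlap between the genotypes, in a design too small to reach the threshold. It was 1.033%, 1.059% and 0.846% of the cells in TA, TB and TC and 2.010%, 2.140% and 1.189% in TD, TE and TF. All NONO deltaER libraries lay above, TF close to the NONO libraries and TD and TE far from them. The means were 0.979% ± 0.116 and 1.78% ± 0.516 (SD, n = 3 each). A two-sided exact permutation test gave p = 0.1, which is the lowest value possible with 3 libraries against 3, and an adjusted p of 0.9 over the 9 measures tested. The difference was 0.143 percentage points within the library set of higher mitochondrial percent (TA, TB, TF) and 1.23 within the other (TC, TD, TE). An edgeR model of the cell counts of the 17 classes gave a log2 ratio of 0.86 (adjusted p = 0.237). The same edgeR model gave 0.58 for Undifferentiated SG (adjusted p = 0.164) and 0.37 for Preleptotene SC (adjusted p = 0.341). As a share of the broad spermatogonia class the libraries overlapped, at 16.5% ± 1.85 for NONO and 20.1% ± 5.77 for NONO deltaER (mean ± SD of 3; exact permutation p = 0.4).

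**Figure D3:**
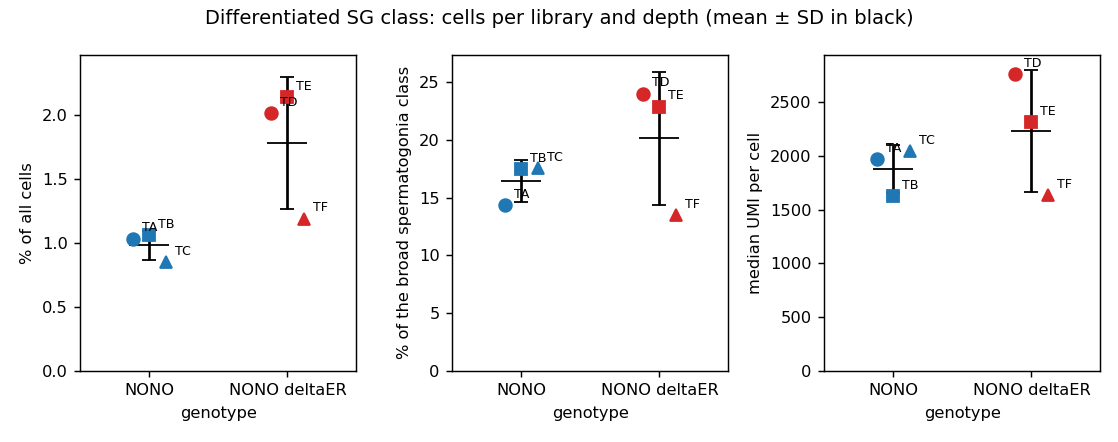
Differentiated SG cells as percent of all cells (left), as percent of the broad spermatogonia class (middle) and their median UMI per cell (right), for each library; points are libraries and black bars the mean ± SD of 3. TD and TE lie highest in all 3 panels, while TF lies near or below the NONO libraries.

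Cells of the class were deepest in the 2 libraries with the most of them. Median UMI per cell was 1968.5, 1627.5 and 2042.5 in NONO and 2761, 2313.5 and 1633.5 in NONO deltaER (exact permutation p = 0.4). Median genes per cell averaged 1259 in NONO and 1431 in NONO deltaER (exact permutation p = 0.4), and 1327 and 1348 after thinning to 2000 UMI. The X-linked share of UMI was 2.51% in NONO and 2.56% in NONO deltaER (exact permutation p = 0.6). Spermatid and protamine markers took 0.134%, 0.317% and 0.755% of the UMI in NONO and 0.475%, 0.164% and 0.129% in NONO deltaER (exact permutation p = 0.6), with TC highest. Without the 5% of cells with the highest Scrublet scores, they took 0.134%, 0.260% and 0.195% in NONO. In NONO deltaER they then took 0.154%, 0.152% and 0.0524%. At 2000 UMI the share of cells with a UMI of Stra8 was 67.1% in NONO and 58.7% in NONO deltaER (exact permutation p = 0.2), with 61.4% and 54.0% unthinned. For Prdm9 it was 59.5% and 57.6%, for Dmc1 70.3% and 70.4% and for Kit 20.7% and 18.3% (exact permutation p = 0.7, 1.0 and 0.8). None of the 9 measures passed the threshold after adjustment.

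No gene passed the test between the genotypes. Of 25771 genes 4455 had enough UMI in the class to be tested, and edgeR's quasi-likelihood test with Benjamini-Hochberg adjustment called 0 of them (0.0%; lowest adjusted p = 0.235). At an unadjusted p under 0.05 there were 282 (6.33%), 152 with a higher level in NONO deltaER (3.41%) and 130 with a lower one (2.92%). DESeq2 called 0 of 16269, with 179 at an unadjusted p under 0.05. The count of 0 moved under several alternatives: edgeR called 24 genes without library TC (13 higher and 11 lower in NONO deltaER), 14 with no filter on low counts, 8 without the 5% of cells with the highest Scrublet scores and 3 with the library set as a covariate. The class in TC had 64 cells, the fewest, and over all its cells the highest share of spermatid and protamine UMI. Without the highest Scrublet scores TC kept 59 cells of the class, and its share (0.195%) was below that of TB (0.260%). TC is also the only NONO library in the set of lower mitochondrial percent, which holds TD and TE. Without TC, genotype and library set thus cannot be fully told apart. None of the 24 genes was among the 3 called with the library set as a covariate.

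The 4 given markers differed little. The log2 fold change, NONO deltaER over NONO, was -0.27 ± 0.12 for Stra8 (SE; edgeR adjusted p = 0.689), and its NONO deltaER libraries all lay below its NONO libraries, as for 4.51% of tested genes. It was -0.12 for Prdm9, 0.06 for Dmc1, -0.20 for Kit and 0.16 for Gm4969, all with overlapping libraries. Nono itself had 36.7, 30.5 and 46.8 CPM in NONO and 41.8, 48.9 and 44.8 CPM in NONO deltaER, too low to be tested; a 3′ tag outside the altered part would not check the genotype.

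With no gene past the threshold, 12 genes in each direction were named whose libraries did not overlap and whose p was lowest; none is a call. All had edgeR adjusted p-values between 0.235 and 0.462. Libraries did not overlap for 8.06% of tested genes on the higher side and 4.51% on the lower side. Magi1, a junction scaffold gene (chr6:93675455-94283917), had 284, 336 and 473 CPM in NONO and 642, 621 and 594 CPM in NONO deltaER, a log2 fold change of 0.74 ± 0.15 (SE). Rad51b, a gene of homologous recombination (chr12:79297282-79814690), had 284, 220 and 405 CPM and 574, 526 and 414 CPM (0.71 ± 0.18), and TC and TF almost met. Hsf2bp, a partner of BRCA2 in meiotic recombination (chr17:31944769-32036349), had 82.5, 61.0 and 62.4 CPM and 141, 158 and 101 CPM (0.94 ± 0.27). Iqsec1, also a leading gene of the class, had 683, 689 and 889 CPM and 1084, 1095 and 1019 CPM (0.47 ± 0.12). The adhesion gene Sdk1 had 1160, 1452 and 1980 CPM and 2342, 2290 and 2072 CPM (0.51 ± 0.15). Gm44767, an antisense RNA gene on chromosome 7 that overlaps Pop4 on the opposite strand, had 68.7, 104 and 88.3 CPM and 211, 164 and 157 CPM (1.04 ± 0.24); whether strand was used in the counting is not given, so its reads and those of Pop4 (79.4 CPM) cannot be told apart. The other higher genes, Bcas3, Erc1, Btbd9, Mylk, D3Ertd751e and Ube2e2, had log2 fold changes of 0.55 to 1.09.

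On the lower side 6 of the 12 genes encode histones. H2afx (chr9:44334694-44336077) had 1677, 2050 and 1689 CPM in NONO and 1258, 1244 and 1310 CPM in NONO deltaER, a log2 fold change of -0.55 ± 0.12 (SE). The linker histone gene Hist1h1a (chr13:23763666-23764406) had 3923, 3996 and 2827 CPM and 2025, 2434 and 2789 CPM (-0.61 ± 0.15), with TC just above TF. Another linker histone gene, Hist1h1c, had 655, 872 and 598 CPM and 460, 457 and 504 CPM (-0.62 ± 0.15), and the testis histone gene Hist1h2ba had 2553, 2507 and 2058 CPM and 1830, 1862 and 1764 CPM (-0.42 ± 0.12). Hist1h2bp and Hist1h2bj had log2 fold changes of -0.83 and -1.11. Ei24 had 59.6, 85.4 and 57.2 CPM and 28.6, 31.6 and 16.8 CPM (-1.31 ± 0.40). The nucleoporin gene Nup133, the RNA-binding protein gene Hnrnpf and the deubiquitinase gene Atxn3 had -0.47 to -0.99.

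**Figure D4:**
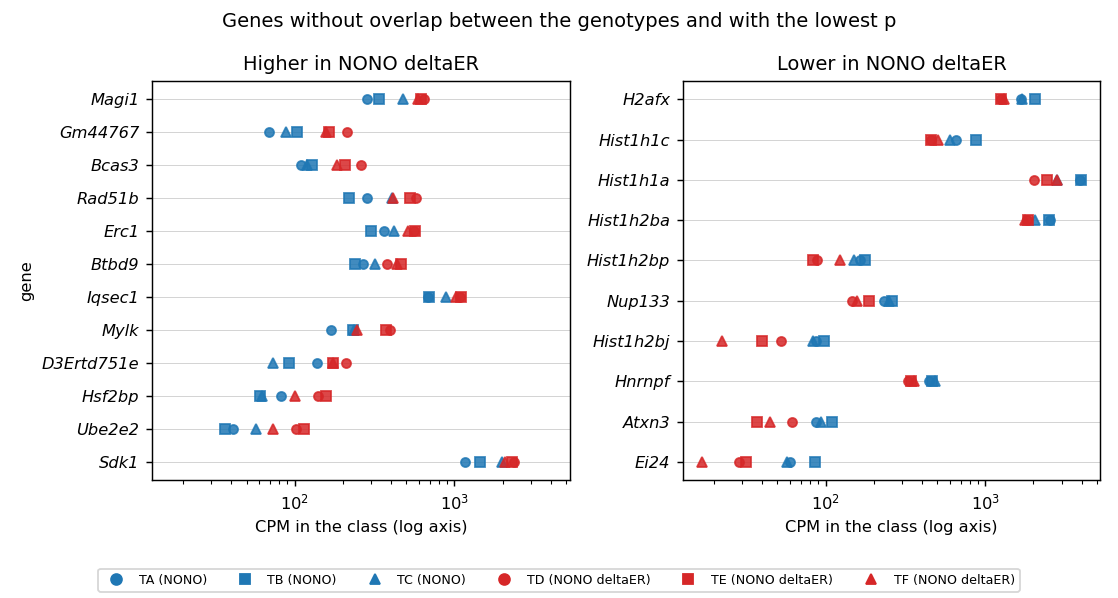
Level in the Differentiated SG class in CPM (horizontal log axis) of 12 higher and 10 lower genes with the lowest p among those whose libraries do not overlap; each point is 1 library, blue for NONO and red for NONO deltaER. The gap is wide for Gm44767 and Ei24, and TC nearly touches TF for Rad51b and Hist1h1a.

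The genes named on the 2 sides differed in length. The 12 higher genes spanned a median of 326.6 kb of genome (60.7 to 974 kb), the 12 lower genes 7.23 kb (0.384 to 69.8 kb) and all tested genes 37.2 kb. For the 152 higher and 130 lower genes with an unadjusted p under 0.05 the medians were 118 and 19.8 kb. Across 4435 tested genes placed on the genome, span and log2 fold change had a Spearman correlation of 0.30; this is across genes, which are not independent replicates, and came up after values had been seen.

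The list of genes with symbols Hist1 to Hist4 was drawn up after values had been seen. It holds genes named above because their libraries did not overlap, so its counts describe these values and test nothing. Among the 22 tested genes with symbols Hist1 to Hist4, 21 had a log2 fold change below 0, where 50.5% of all tested genes did. Their median was -0.50, against -0.0043 over all tested genes, and none passed the adjusted threshold; 13 had an unadjusted p under 0.05, all lower (2.92% of all tested genes were), and 6 had all NONO deltaER libraries below all NONO libraries (4.51% of all tested genes). Hist1h2aa, which had 4542, 5375 and 3175 CPM in NONO and 2988, 2658 and 3086 CPM in NONO deltaER, had -0.63 ± 0.18 (SE; edgeR adjusted p = 0.474), and TC lay close to TF. Hist1h4d was the exception at 0.21. The family took 1.85%, 2.02% and 1.36% of the UMI of the class in NONO and 1.20%, 1.17% and 1.30% in NONO deltaER, so TA and TB were far above the rest and TC only a little. The difference was -0.630 percentage points in the first library set and -0.170 in the second, and with cells of at least 2000 UMI alone the libraries overlapped. Depth per cell, the library sets and library TC moved with this result, and their part in it was not tested. Slbp, a gene of the DNA replication list, encodes a protein that binds the stem-loop of histone transcripts. It had 188, 177 and 187 CPM in NONO and 257, 276 and 325 CPM in NONO deltaER. Its log2 fold change was 0.57 ± 0.17 (SE, edgeR adjusted p = 0.462). Of 32 tested genes of that list 1 had all NONO deltaER libraries higher, where 8.06% of all tested genes did. A link of Slbp to the histone values was not tested.

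In the neighbouring classes the histone share was lower, and its libraries overlapped between the genotypes in Undifferentiated SG but not in Preleptotene SC. It was 0.390%, 0.315% and 0.182% in NONO and 0.301%, 0.247% and 0.246% in NONO deltaER in Undifferentiated SG, and 0.416%, 0.424% and 0.388% against 0.374%, 0.294% and 0.337% in Preleptotene SC. The difference in response between the classes was tested for every gene with limma, and 0 genes passed against Undifferentiated SG (0.0% of 4441, lowest adjusted p = 0.526) and 0 against Preleptotene SC (0.0% of 4165, lowest adjusted p = 0.976). At an unadjusted p under 0.05 these tests held 326 and 180 genes. The log2 fold change of Hist1h1a in the class minus that in the neighbour was -0.54 for both neighbours, and that of Slbp was 0.80 against Undifferentiated SG and 1.06 against Preleptotene SC. No response of the class was thus shown to differ from that of its neighbours.

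Counts for other lists are set beside the background of 2207 genes above and 2248 below 0. Of 12 tested genes in the list of testis histones and Brdt, 12 were below 0 (median -0.44); it shares genes with the histone family, and Brdt, a bromodomain protein gene, had -0.47. Markers of later germ cells were also below 0 with all 6 libraries. These were 5 of 5 tested pachytene to diplotene markers (median -0.43), 3 of 3 spermatid markers (-0.51) and 2 of 2 protamine and transition protein genes (-0.43). With each library left out in turn, the pachytene to diplotene median ran from -0.438 to 0.068. The part of these markers in the histone values was not tested. Of 14 heat shock genes 12 were below 0 (median -0.31), as for Hspa8 (1108 CPM, -0.30) and Hsp90ab1 (547 CPM, -0.41). Of 49 cytosolic ribosome genes 38 were below 0, with a median of -0.07. Of 43 recombination genes 28 were above 0 (median 0.06), and 7 had all NONO deltaER libraries above all NONO libraries, as 8.06% of all tested genes did. These included Gm960, the gene of the TOP6BL subunit of the break-making enzyme, with 170, 220 and 182 CPM and 266, 288 and 263 CPM (0.49 ± 0.17), and Spata22, a partner of MEIOB, with 101, 91.5 and 88.3 CPM and 172, 109 and 151 CPM (0.58 ± 0.25). H2afx was the member with all NONO deltaER libraries lower. Of 31 leptotene to zygotene markers 19 were above 0 (median 0.06), and of 7 entry markers 5 (median 0.02). Of 6 tested markers of differentiating spermatogonia 0 were above 0 (median -0.18). Cohesin (5 of 13 above 0), DNA replication (16 of 32) and mitosis genes (10 of 20) had medians of -0.12, -0.0053 and 0.04. Of 6 tested DNA methylation genes 4 were below 0; the maintenance methyltransferase gene Dnmt1 had 394, 348 and 338 CPM and 242, 282 and 297 CPM (-0.46 ± 0.16). X-linked genes were divided evenly, with 66 above and 66 below 0. In all these lists 0 genes passed the adjusted threshold.

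**Figure D5:**
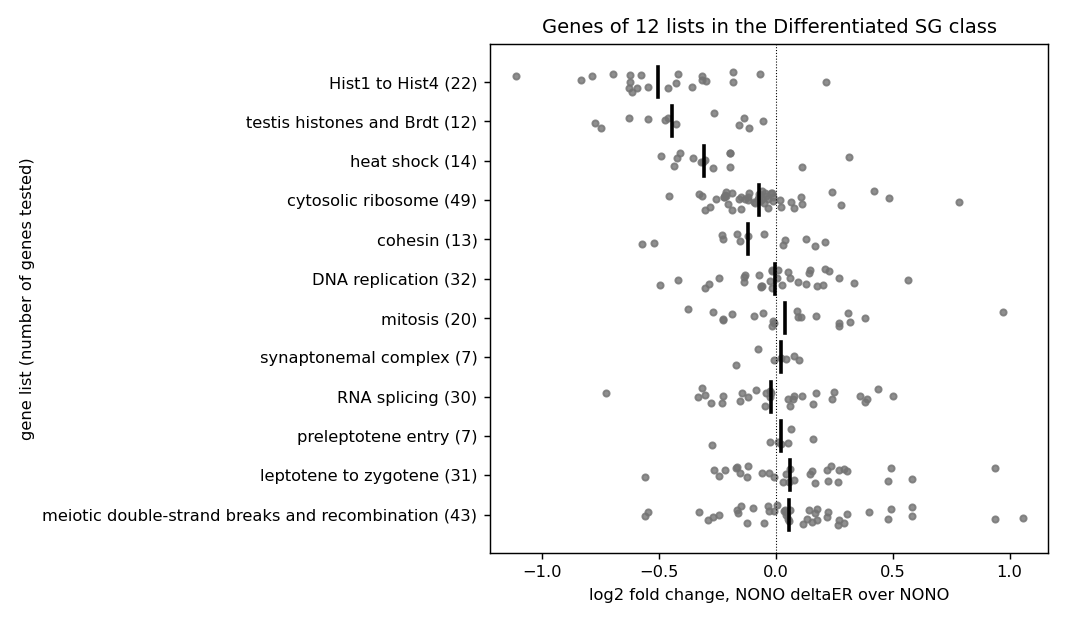
Log2 fold change in the Differentiated SG class, NONO deltaER over NONO (horizontal axis), of each tested gene (grey points) in 12 lists (vertical axis, number of genes tested in brackets), with the list median as a black bar. The Hist1 to Hist4 list and the testis histones lie to the left of 0, with medians of -0.50 and -0.44, and the other lists lie nearer 0.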

How the data were processed

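The authors deposited raw UMI counts (25771 genes, 46495 cells) and a cell table with library, group, broad and fine class and mitochondrial percent; Cell Ranger 2.1.1 and mm10 are named per the submitters' processing notes, and per the labels' protocols the chemistry was 10x 3′ v2. No source used here names later steps. The deposited percent of mitochondrial UMI was used as given. Counts of the Differentiated SG cells were summed per library and compared with edgeR 4.0.16 in R 4.3.3 (TMM factors, filterByExpr, robust quasi-likelihood test, threshold 0.05), limma 3.58.1 (difference between classes) and exact permutation tests. DESeq2 1.42.0 was an alternative. Scrublet, run through scanpy 1.11.5, marked 0.912% of all cells; none was removed, and an alternative dropped the top 5% by score. Thinning drew a fixed number of UMI per cell without replacement. Symbols were placed with GENCODE M21 (97.5% matched). Depth was 163914 to 454758 UMI per library in the class. The fit was tested on simulated counts. The rules for named genes are those given beside them: 12 per direction between genotypes, 24 leading and 10 most abundant genes, given markers, and examples of lists; a few of these genes are not reported here. The members and lists were chosen with earlier results of these data known.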

Additional observations from a re-analysis of the deposited data

How the results depend on the processing

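No paired analysis was possible because libraries TA to TF carry no replicate number and cannot be matched to the labels' samples. The count of 0 changed genes became 14 with no filter on low counts (9 higher, 5 lower), 8 without the 5% of cells with the highest Scrublet scores (3 higher, 5 lower), 3 with the library set as a covariate (Stard6, 1700009N14Rik and Srpk2, all lower) and 0 to 24 when each library was left out (24 without TC, 0 without any other). The genes called without TC included Hist1h2aa (-0.83) and Magi1 (0.96), and those called without the highest Scrublet scores included H2afx (-0.61) and Rad51b (0.70). RLE factors, DESeq2, a minimum of 10 UMI, of 1000 or 2000 UMI per cell and equal numbers of cells all gave 0. The counts against both neighbours were 0 under every alternative run. Of 357 values of the 24 named genes under alternatives, 0 reversed. The 24 were chosen for libraries that did not overlap in these same counts, so this 0 was largely set by that choice. Of the other named genes, the log2 fold change of Dmc1 was -0.0526 with equal numbers of cells and -0.0028 without TB; Hist1h1d 0.0414 with equal cells; Hist1h2ac 0.15 with cells of at least 2000 UMI, 0.12 with the library set and 0.0440 without TA; Hist1h3a 0.0593 with the library set and 0.24 without TB; and Hist3h2ba 0.0013 with no filter and 0.21 with the library set. The median of the histone family ran from -0.64 to -0.35, and that of the pachytene to diplotene markers from -0.586 to 0.068. Of 345 values of 23 list medians under alternatives, 5 moved by at least the median SE of the list. Differences between genotypes that changed sign, in percentage points, were those of the X-linked share (-0.0104 to 0.121 when each library was left out), the spermatid and protamine share (-0.280 to 0.0300, the latter without TC), and the shares of cells with a UMI of Prdm9 (2.18 at 1000 UMI, 0.912 unthinned, -4.36 to 1.16 leaving out libraries; positive without TB, 1.06, and without TF), Dmc1 (-6.16 to 7.41; -0.863 without TA, -4.14 without TD, -2.02 without TE) and Kit (0.630 at 1000 UMI, 1.16 unthinned, -5.47 to 3.00). Leaving out each library gave 0.620 to 1.10 points for the share of cells, 94.0 to 658 for median UMI, 55.3 to 314 for median genes and -12.3 to -4.80 points for cells with Stra8. For the histone family and 9 other lists used above, counts of members highest in the class stayed within 1.5 times in all 30 values. The cause of these changes was not tested, and the class's depth limits the test to its 4455 best measured genes.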
